A study of Homo sapiens with 28 samples.

Results

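The genes described here are 9 secreted inflammatory factors and enzymes, IL6, IL11, LIF, IL1A, IL1B, IL24, CSF1, CSF2 and PTGS2. They were chosen by name as interleukins, colony-stimulating factors and the inducible cyclooxygenase, from 25807 gene symbols in the RNA table and 19050 genes in the guide table. All 9 were found in both. The cells were U2OS, a human osteosarcoma line with intact p53 (WT), and U2OS in which p53 had been knocked out (KO). RNA was measured in 5 groups of 2 libraries, lettered A and B. The recipients were p53 WT U2OS cells in every RNA library. They had spent 8 h in medium conditioned by KO cells given 31.6 µM etoposide, by KO cells given DMSO, by WT cells given 31.6 µM etoposide, or by WT cells given DMSO, or they were untreated and collected at T0, the start of the assay. DMSO is the solvent control. Etoposide traps topoisomerase II on broken DNA. The labels do not say how long the donors were treated, whether the drug was removed before conditioning, or whether the KO line is 1 clone. The screen counted guide RNAs of a pooled CRISPR knockout library in KO and WT cells after 96 h in 5 µM etoposide, after 96 h in DMSO, and at T0, with 3 libraries in each of 6 groups, lettered A, B and C. The titles of the screen libraries call the DMSO groups untreated. The question put to the RNA was how recipient cells answer medium from damaged donors and whether the p53 status of the donors matters; the screen asked which gene losses change growth and survival in the drug.

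IL6, IL11 and LIF encode cytokines that signal through the shared receptor subunit gp130 to JAK kinases and STAT3. IL1A and IL1B encode the agonists of the IL-1 receptor, which signals to NF-kB and MAP kinases, and IL-1 alpha is a known inducer of IL6 and IL8 in damaged and senescent cells. IL24 encodes a cytokine of the IL-10 family that binds receptors built from IL20RA, IL20RB and IL22RA1. CSF1 and CSF2 encode M-CSF and GM-CSF, growth factors of macrophages and granulocytes, and PTGS2 encodes cyclooxygenase-2, which makes the precursor of prostaglandin E2. Many of these transcripts are short-lived, and most belong to the secretory programme described for cells with persistent DNA damage.

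Promoters are shown for 4 of the tested genes whose upstream window held a match to a searched motif, because their transcripts were higher together in both etoposide media. Sequences for 7 of the 9 genes were matched by symbol in RefSeq's GRCh38.p14 annotation (IL6, IL11, IL1A, IL1B, IL24, CSF2 and PTGS2); LIF and CSF1 were not used here. Each line gives the 250 bases before an annotated transcription start, 5′ to 3′ on the gene's strand, with matches to 5 motifs in capitals.
IL6, chr7:22726950-22727199, plus strand: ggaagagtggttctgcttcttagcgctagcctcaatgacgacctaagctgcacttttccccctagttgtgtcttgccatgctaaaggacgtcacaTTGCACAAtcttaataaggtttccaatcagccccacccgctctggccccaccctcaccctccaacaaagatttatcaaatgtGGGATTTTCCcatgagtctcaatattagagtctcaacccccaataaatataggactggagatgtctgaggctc
IL11, chr19:55370464-55370713, minus strand: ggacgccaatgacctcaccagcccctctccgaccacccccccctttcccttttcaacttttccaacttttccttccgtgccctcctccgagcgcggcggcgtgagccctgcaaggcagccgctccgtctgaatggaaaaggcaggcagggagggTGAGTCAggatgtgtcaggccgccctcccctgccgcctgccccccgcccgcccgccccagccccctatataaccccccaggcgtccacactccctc
IL1A, chr2:112784401-112784650, minus strand: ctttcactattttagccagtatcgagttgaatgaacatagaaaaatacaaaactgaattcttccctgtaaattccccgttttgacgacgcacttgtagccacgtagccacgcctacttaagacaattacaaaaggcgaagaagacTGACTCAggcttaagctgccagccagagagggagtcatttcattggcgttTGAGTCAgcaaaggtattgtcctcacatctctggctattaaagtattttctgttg
PTGS2, chr1:186680424-186680673, minus strand: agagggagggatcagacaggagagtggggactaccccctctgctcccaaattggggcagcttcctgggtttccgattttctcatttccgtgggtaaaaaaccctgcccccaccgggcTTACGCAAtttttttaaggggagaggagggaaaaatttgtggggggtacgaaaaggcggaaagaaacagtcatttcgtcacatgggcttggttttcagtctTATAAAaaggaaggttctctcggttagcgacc
The motifs were searched on both strands and were the AP-1 site TGANTCA, the C/EBP site TTGCNNAA, the TATA box TATAAA, the cyclic AMP site TGACGTCA and the kappa-B consensus, given by name. The IL6 window held a C/EBP match between 155 and 148 bases before the start and a kappa-B match between 73 and 64 bases before it. The IL11 window held an AP-1 match between 96 and 90 bases before the start. The second annotated start of IL1A had AP-1 matches between 105 and 99 and between 55 and 49 bases before it. The PTGS2 window held a C/EBP match on the opposite strand, between 133 and 126 bases before the start, and a TATA box between 32 and 27. Among the 7 genes, 2 held an AP-1 match, 3 a C/EBP match, 2 a TATA box, 1 a kappa-B match and 0 a cyclic AMP site. IL1A was counted once over its 2 annotated starts. Its TATA box match lay only in the window of the first start, not shown, between 239 and 234 bases before that start. Of 35116 annotated promoters of the same length, 6.57% held the AP-1 site, 9.05% the C/EBP site, 10.7% the TATA box, 5.21% the kappa-B consensus and 1.65% the cyclic AMP site. These shares are per promoter window, whereas the counts for the 7 genes are per gene. A match describes letters in a window, and none of the motifs overlapped another in the 4 windows shown.

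RNA libraries held 16.8 to 20.3 M counts. Levels are given as CPM, counts relative to the library total after scaling by TMM factors, and 3 counts in a library corresponded to 0.148 to 0.170 CPM. Markers fixed for the labelled line were present in part. The 8 mesenchymal and bone markers summed to 13969 to 17587 CPM, most of it from COL1A1, FN1, VIM and SPARC. COL1A2 stayed at or under 1.27 CPM and SPP1 at or under 6.23 CPM. Over all groups, the 5 epithelial markers summed to 12.3 to 17.3 CPM and the 4 endothelial markers to 0.520 to 2.96 CPM. The 8 leukocyte markers summed to 21.2 to 27.2 CPM in KO etoposide medium, 15.2 to 16.2 in KO DMSO medium, 18.2 to 18.8 in WT etoposide medium, 13.9 to 14.2 in WT DMSO medium and 16.6 to 17.6 at T0. Most of this was CD68, and LYZ and CD3E were each at 0 in 9 of 10 libraries; the part of these markers in the differences below was not tested. Library B of the KO DMSO medium stood apart from library A. Of genes averaging at least 10 CPM, 15 differed by over 2-fold between them, against 0 or 1 within each other group. In bulk RNA, fewer expressing cells and less RNA per cell cannot be told apart.

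**Figure D1:**
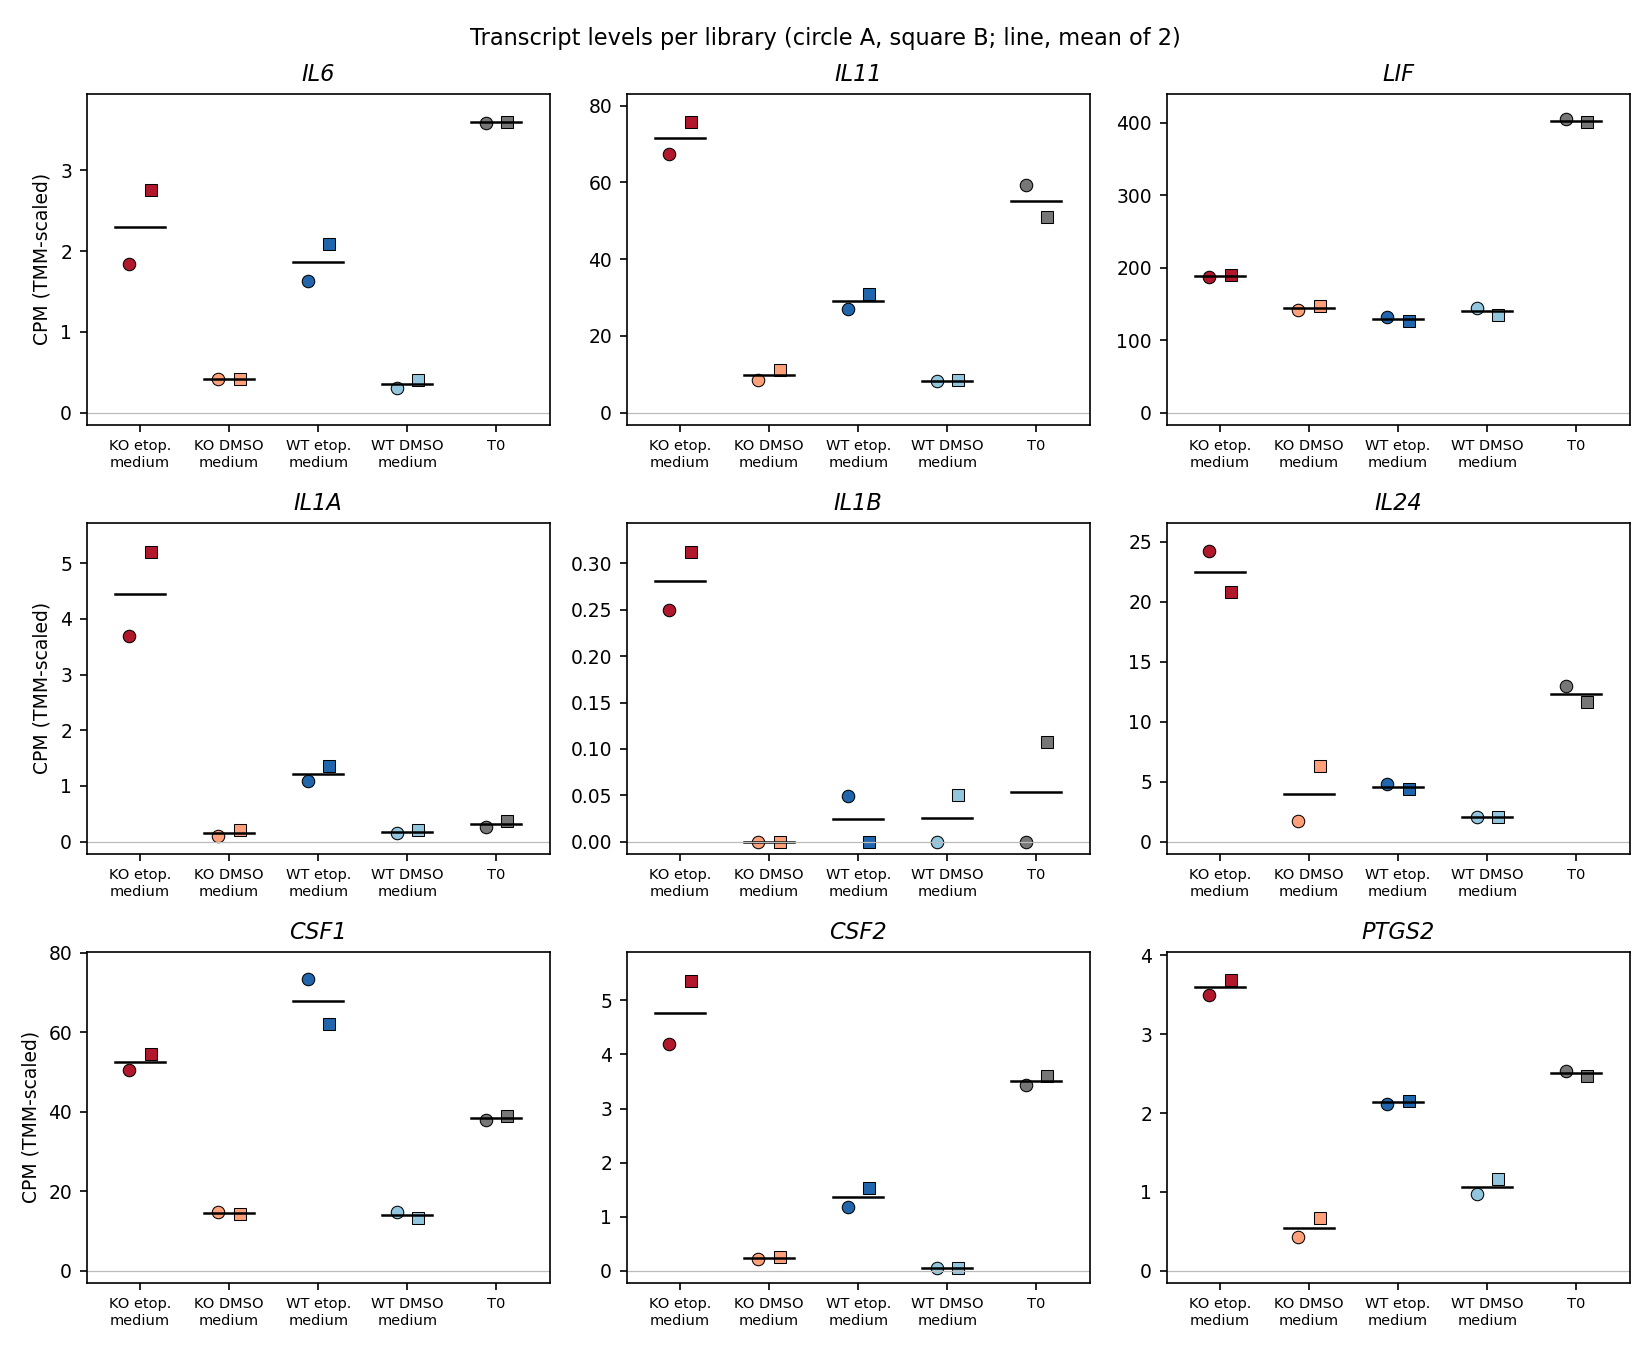
Transcript levels of the 9 genes in CPM (TMM-scaled, linear axes) in each of 10 RNA libraries, circles for library A and squares for library B, with a line at the mean of 2. LIF is highest at T0, at 405 and 401 CPM, and CSF1 is highest in WT etoposide medium, at 73.5 and 62.1 CPM.

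Among the gp130 cytokines, LIF was the most abundant of the 9 transcripts per length in all 5 groups. Libraries A and B had 187 and 190 CPM of LIF in KO etoposide medium, 141 and 147 in KO DMSO medium, 131 and 127 in WT etoposide medium, 144 and 135 in WT DMSO medium, and 405 and 401 at T0. T0 stood far above all media, and the KO etoposide libraries stood above the other 6 media libraries, which lay close together. IL11 had 67.3 and 75.8 CPM in KO etoposide medium, 8.52 and 11.1 in KO DMSO medium, 27.0 and 30.9 in WT etoposide medium, 8.16 and 8.50 in WT DMSO medium, and 59.2 and 50.8 at T0. Its order was KO etoposide medium, T0, WT etoposide medium, then both DMSO media, whose difference did not pass the test. IL6 had 1.85 and 2.76 CPM in KO etoposide medium, 0.421 and 0.411 in KO DMSO medium, 1.63 and 2.09 in WT etoposide medium, 0.306 and 0.405 in WT DMSO medium, and 3.59 and 3.60 at T0. Behind the IL6 values stood 90 counts over both KO etoposide libraries, 16 in KO DMSO, 70 in WT etoposide, 14 in WT DMSO and 135 at T0. The etoposide media overlapped each other, the KO DMSO libraries lay just above the WT DMSO libraries, and T0 was highest.

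The IL-1 genes were scarce outside etoposide media. IL1A had 3.69 and 5.20 CPM in KO etoposide medium, 0.105 and 0.206 in KO DMSO medium, 1.08 and 1.36 in WT etoposide medium, 0.153 and 0.202 in WT DMSO medium, and 0.264 and 0.376 at T0. The etoposide media did not overlap any other group, and KO etoposide medium lay above WT etoposide medium. IL1B had 5 and 6 counts in KO etoposide medium, 0 and 0 in KO DMSO medium, 1 and 0 in WT etoposide medium, 0 and 1 in WT DMSO medium, and 0 and 2 at T0. It did not pass the filter on low counts and was not tested with the others. The 11 counts over both KO etoposide libraries, against 0 over both KO DMSO libraries, put the lower end of the exact 95% interval of their ratio at 2.46, for counting error only. With the filter removed, edgeR's quasi-likelihood test gave an adjusted p of 0.0302 for that difference. Over all genes, the unfiltered fit called 5865 in this comparison, against 5728 with the filter. Between the DMSO media it called 1186, against 240, so its calls are not on the same footing as the filtered ones. Against WT etoposide medium the count ratio of IL1B was 10.6, with a 95% exact interval of 1.55 to 458 that covers counting error only, and the unfiltered adjusted p was 0.182.

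IL24 had 24.2 and 20.8 CPM in KO etoposide medium, 1.74 and 6.28 in KO DMSO medium, 4.83 and 4.36 in WT etoposide medium, 2.04 and 2.02 in WT DMSO medium, and 12.9 and 11.6 at T0. The KO DMSO libraries spanned the WT etoposide libraries. The gap between KO DMSO libraries A and B was the widest within a group for IL24, at 33 and 122 counts. CSF1 had 50.4 and 54.5 CPM in KO etoposide medium, 14.7 and 14.2 in KO DMSO medium, 73.5 and 62.1 in WT etoposide medium, 14.6 and 13.2 in WT DMSO medium, and 37.9 and 39.0 at T0. It was the only gene of the 9 whose highest 2 libraries came from WT etoposide medium. CSF2 had 4.19 and 5.36 CPM in KO etoposide medium, 0.210 and 0.257 in KO DMSO medium, 1.18 and 1.53 in WT etoposide medium, 0.0510 and 0.0506 in WT DMSO medium, and 3.43 and 3.60 at T0. Both WT DMSO values of CSF2 rest on 1 count. PTGS2 had 3.49 and 3.69 CPM in KO etoposide medium, 0.421 and 0.669 in KO DMSO medium, 2.12 and 2.15 in WT etoposide medium, 0.969 and 1.16 in WT DMSO medium, and 2.53 and 2.47 at T0. Its 5 groups did not overlap, with KO etoposide medium highest and KO DMSO medium lowest.

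Per kilobase of the deposited gene length, the genes spanned a wide range of levels. In KO etoposide medium, LIF averaged 47.6 ± 0.54, IL11 30.1 ± 2.5, IL24 11.4 ± 1.2 and CSF1 10.7 ± 0.60 CPM per kb (SD, n = 2). IL24 and CSF1 lay within the spread of each other there. CSF2 averaged 6.08 ± 1.0 CPM per kb, IL6 1.94 ± 0.54 and IL1A 1.52 ± 0.36, and the last 2 were within their spread. PTGS2 averaged 0.800 ± 0.031 and IL1B 0.188 ± 0.030 CPM per kb in the same medium. In WT etoposide medium CSF1 came second, at 13.8 ± 1.6 CPM per kb, within the spread of IL11 at 12.2 ± 1.2.

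Medium from etoposide-treated KO donors, set against medium from DMSO-treated KO donors, gave higher levels of all 8 genes that could be tested. The largest changes on the log2 scale were those of IL1A, 4.77 ± 0.40 (SE, adjusted p = 2.6e-08), and CSF2, 4.31 ± 0.34 (adjusted p = 9.5e-09). Their sizes rest on 6 counts of IL1A and 9 of CSF2 over both KO DMSO libraries. IL11 rose by 2.87 ± 0.12 (adjusted p = 2.2e-12), a 7.30-fold difference, PTGS2 by 2.70 ± 0.29 (adjusted p = 6.2e-07), IL24 by 2.48 ± 0.27 (adjusted p = 5.9e-07) and IL6 by 2.45 ± 0.36 (adjusted p = 2.5e-05). CSF1 rose by 1.86 ± 0.10 (adjusted p = 7.1e-11). LIF moved least, by 0.39 ± 0.07 or 1.31-fold (adjusted p = 0.00018). Of all 15391 genes tested, 18.8% were called higher in this comparison, at an adjusted p under 0.05. IL1A passed the filter on low counts only through the etoposide media, and IL6 and CSF2 through the etoposide media and T0, so their share of the count follows in part from the filter. IL11, LIF, IL24 and CSF1 passed it in every group, and PTGS2 in all but KO DMSO medium. IL24 stayed called without KO DMSO library B, at 3.70, and without library A, at 1.82.

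In medium from WT donors, etoposide against DMSO gave higher levels of 7 of the 8 tested genes, against 16.1% of all genes called higher. As in KO media, IL1A, IL6 and CSF2 did not pass the filter on low counts through the DMSO media. Their share of this count follows in part from the filter. CSF1 rose by 2.29 ± 0.10 (SE, adjusted p = 6.3e-12) or 4.88-fold, IL6 by 2.36 ± 0.38 (adjusted p = 9.1e-05), IL1A by 2.73 ± 0.50 (adjusted p = 0.00030) and IL11 by 1.79 ± 0.13 (adjusted p = 3.8e-09). The size of the IL1A change rests on 7 counts over both WT DMSO libraries. CSF2 was called higher (adjusted p = 6.3e-06). Since its DMSO group held 2 counts in all, the size of the CSF2 change is given as a ratio of summed counts scaled for library size, 26.4 with a 95% exact interval of 6.96 to 224. IL24 rose by 1.18 ± 0.36 (adjusted p = 0.0173) and PTGS2 by 0.996 ± 0.277 (adjusted p = 0.00893). LIF had a difference of -0.11 ± 0.07 (95% interval -0.26 to 0.03, adjusted p = 0.225). The IL24 call was lost when any 1 of the 4 libraries compared was left out (adjusted p = 0.0518 to 0.0962), and by DESeq2 (adjusted p = 0.105). The PTGS2 call was lost without WT DMSO library A (0.87, adjusted p = 0.0783).

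**Figure D2:**
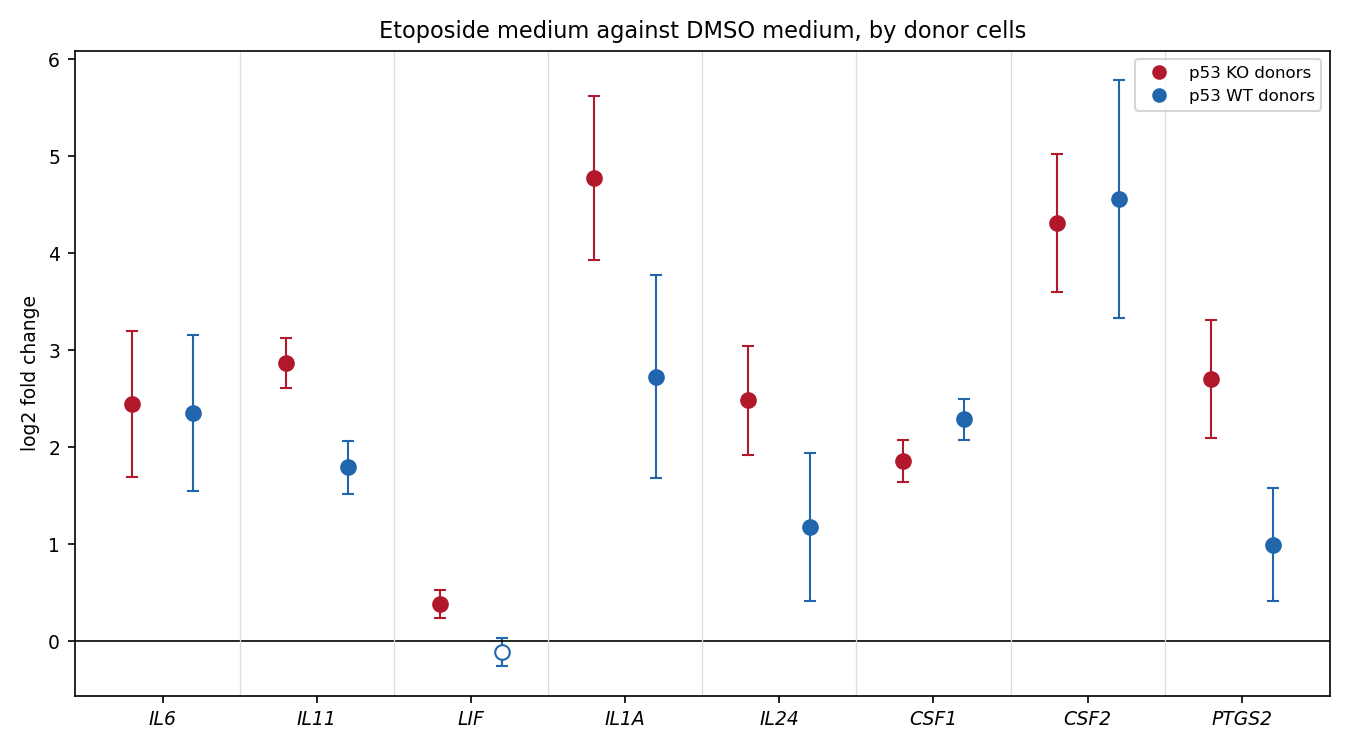
Log2 fold changes of etoposide medium against DMSO medium for KO donors (red) and WT donors (blue), with 95% intervals worked back from edgeR's quasi-likelihood test. Filled points have an adjusted p under 0.05. For IL11 the KO value of 2.87 stands above the WT value of 1.79, whereas CSF1 has 1.86 in KO and 2.29 in WT media; the CSF2 value for WT rests on 2 counts in DMSO medium.

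The difference between these effects, that of KO donors minus that of WT donors, passed the test for 3 genes, all higher: IL11, LIF and PTGS2. The difference was 1.07 ± 0.18 on the log2 scale for IL11 (SE, adjusted p = 0.0071), 0.50 ± 0.10 for LIF (adjusted p = 0.0128) and 1.71 ± 0.43 for PTGS2 (adjusted p = 0.0447). Of all genes, 1.50% were called higher and 0.617% lower in this test. IL1A had 2.05 ± 0.86 (adjusted p = 0.205), IL24 1.31 ± 0.47 (adjusted p = 0.144) and CSF1 -0.43 ± 0.15 (adjusted p = 0.116). For IL6 the difference was 0.09 ± 0.61, with a 95% interval of -1.20 to 1.38, and for CSF2 it was -0.25 ± 0.70, with an interval of -1.71 to 1.21. The CSF2 value rests on the 2 counts in WT DMSO medium. Without WT DMSO library B the IL11 call was lost (1.04, adjusted p = 0.0623). LIF lost its call when 1 of 4 libraries was left out, either WT DMSO library, WT etoposide library B or KO etoposide library A, with values of 0.45 to 0.55 and an adjusted p of up to 0.113. PTGS2 lost its call when any 1 library but KO DMSO B was left out (1.40 to 1.83, adjusted p of up to 0.184). IL24 had 2.52 without KO DMSO library B. With no filter on low counts, edgeR called IL24 (1.29, adjusted p = 0.00039).

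Set against each other directly, KO etoposide medium gave higher levels than WT etoposide medium for 6 genes and a lower level for CSF1, against 8.50% of all genes called higher and 5.57% lower. IL24 was 4.89-fold higher, with a log2 difference of 2.29 ± 0.26 (SE, adjusted p = 2.0e-05). IL1A differed by 1.87 ± 0.27 (adjusted p = 0.00022), CSF2 by 1.82 ± 0.24 (adjusted p = 8.9e-05) and IL11 by 1.31 ± 0.11 (adjusted p = 6.0e-07). PTGS2 differed by 0.75 ± 0.22 (adjusted p = 0.0322) and LIF by 0.55 ± 0.07 (adjusted p = 5.2e-05). CSF1 was lower (-0.37 ± 0.09, adjusted p = 0.0102). The IL6 difference was 0.31 ± 0.27, with a 95% interval of -0.25 to 0.87. The PTGS2 call was lost when any 1 of the 4 libraries was left out (0.71 to 0.79, adjusted p = 0.114 to 0.143). The CSF1 call was lost without WT etoposide library A (-0.24, adjusted p = 0.175) and without KO etoposide library A (-0.32, adjusted p = 0.121). The authors' deposited table gives the same contrast, as its log2 fold changes correlated with these at r = 0.99997 across 13638 genes and at 0.69 or less with every other contrast. In the authors' deposited table IL24 had 2.29, IL11 1.30, LIF 0.54 and CSF1 -0.37, all with an adjusted p under the threshold. PTGS2 had 0.75 with an adjusted p of 0.162 in the authors' deposited table, which has no row for IL1B. For IL1A the authors' deposited table leaves the column of DESeq2's adjusted p blank, and a further column of Benjamini-Hochberg values holds 0.00127.

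Medium from DMSO-treated KO donors, set against that from DMSO-treated WT donors, gave 0 calls among the 8 tested genes by edgeR and 0 by DESeq2, which gave no adjusted p for 5 of them, against 1.56% of all genes called in either direction by edgeR. The smallest adjusted p values by edgeR were those of IL24 (0.98 ± 0.37, SE, adjusted p = 0.151), PTGS2 (-0.96 ± 0.36, adjusted p = 0.151) and CSF2 (adjusted p = 0.194). The CSF2 ratio was 4.61 with a 95% exact interval of 0.954 to 43.8, from 9 counts against 2. LIF differed by 0.05 (95% interval -0.10 to 0.19) and CSF1 by 0.06 (-0.18 to 0.30). The IL24 difference rests on KO DMSO library B. Without it the value was -0.22 (adjusted p = 0.848), and without library A it was 1.66 (adjusted p = 6.7e-07). IL11 was also called without library A (0.44, adjusted p = 0.0406). The number of genes called in this comparison was 240 with all libraries, 3047 without KO DMSO library A and 11 without library B.

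Against T0, 7 of the 8 tested genes were lower in the DMSO media of both kinds of donor. All media libraries were taken at 8 h, and no group spent 8 h without conditioned medium. Time, change of medium and conditioning therefore cannot be told apart in comparisons with T0. Of all genes, 18.7% were called lower in KO DMSO medium and 17.6% in WT DMSO medium. IL6 and CSF2 passed the filter on low counts through T0 and the etoposide media only, so their share follows in part from the filter. IL6 fell by 3.09 ± 0.33 on the log2 scale in KO DMSO medium (SE, adjusted p = 1.1e-06) and by 3.31 ± 0.34 in WT DMSO medium (adjusted p = 5.2e-07), where it was 9.95-fold lower. IL11 fell by 2.49 ± 0.12 in KO DMSO medium and by 2.72 ± 0.13 in WT DMSO medium, LIF by 1.48 ± 0.07 in KO and 1.53 ± 0.07 in WT DMSO medium, and CSF1 by 1.41 ± 0.10 in KO and 1.47 ± 0.10 in WT DMSO medium. IL24 fell by 1.61 ± 0.28 in KO DMSO medium and by 2.59 ± 0.32 in WT DMSO medium, and without KO DMSO library B the KO value was -2.82. PTGS2 fell by 2.18 ± 0.31 in KO DMSO medium and by 1.23 ± 0.27 in WT DMSO medium. CSF2 fell by 3.87 ± 0.36 in KO DMSO medium. In WT DMSO medium its count ratio to T0 was 0.0144, with a 95% exact interval of 0.0017 to 0.053. IL1A had 6 counts over the KO DMSO libraries, 7 over the WT DMSO libraries and 12 at T0, and was not called (adjusted p = 0.272 for KO and 0.362 for WT).

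With etoposide medium the position against T0 differed from gene to gene. In KO etoposide medium 4 genes were above T0, against 22.8% of all genes, and 2 below it, against 23.8%. IL1A, above T0 in both etoposide media, passed the filter on low counts only through those media. IL1A was higher by 3.77 ± 0.35 (SE, adjusted p = 8.9e-08), IL24 by 0.88 ± 0.23 (adjusted p = 0.0041), CSF1 by 0.45 ± 0.09 (adjusted p = 0.00063) and IL11 by 0.38 ± 0.10 (adjusted p = 0.0054). LIF was lower, at -1.09 ± 0.07 (adjusted p = 3.6e-10), as was IL6, at -0.65 ± 0.24 (adjusted p = 0.0341). CSF2 (0.44 ± 0.21, adjusted p = 0.0886) and PTGS2 (0.52 ± 0.22, adjusted p = 0.0595) were not called. In WT etoposide medium 2 genes were above T0, IL1A by 1.90 ± 0.45 (adjusted p = 0.0021) and CSF1 by 0.82 ± 0.09 (adjusted p = 1.1e-06), against 19.2% of all genes. There 5 were below it, against 21.8%: LIF by -1.64 ± 0.07, IL24 by -1.41 ± 0.28, CSF2 by -1.38 ± 0.25, IL6 by -0.96 ± 0.25 and IL11 by -0.93 ± 0.11. PTGS2 had -0.23 ± 0.24 (95% interval -0.73 to 0.27). The IL6 call in KO etoposide medium was lost without T0 library A or B or KO etoposide library A (-0.38 to -0.65). The IL11 call there was lost without T0 library B (0.27) or KO etoposide library B (0.30), the IL24 call without KO etoposide library A (0.76), and the IL6 call in WT etoposide medium without WT etoposide library A (-0.78). The 4 media comparisons share their T0 libraries, and in each of them time, change of medium and conditioning cannot be told apart.

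**Figure D3:**
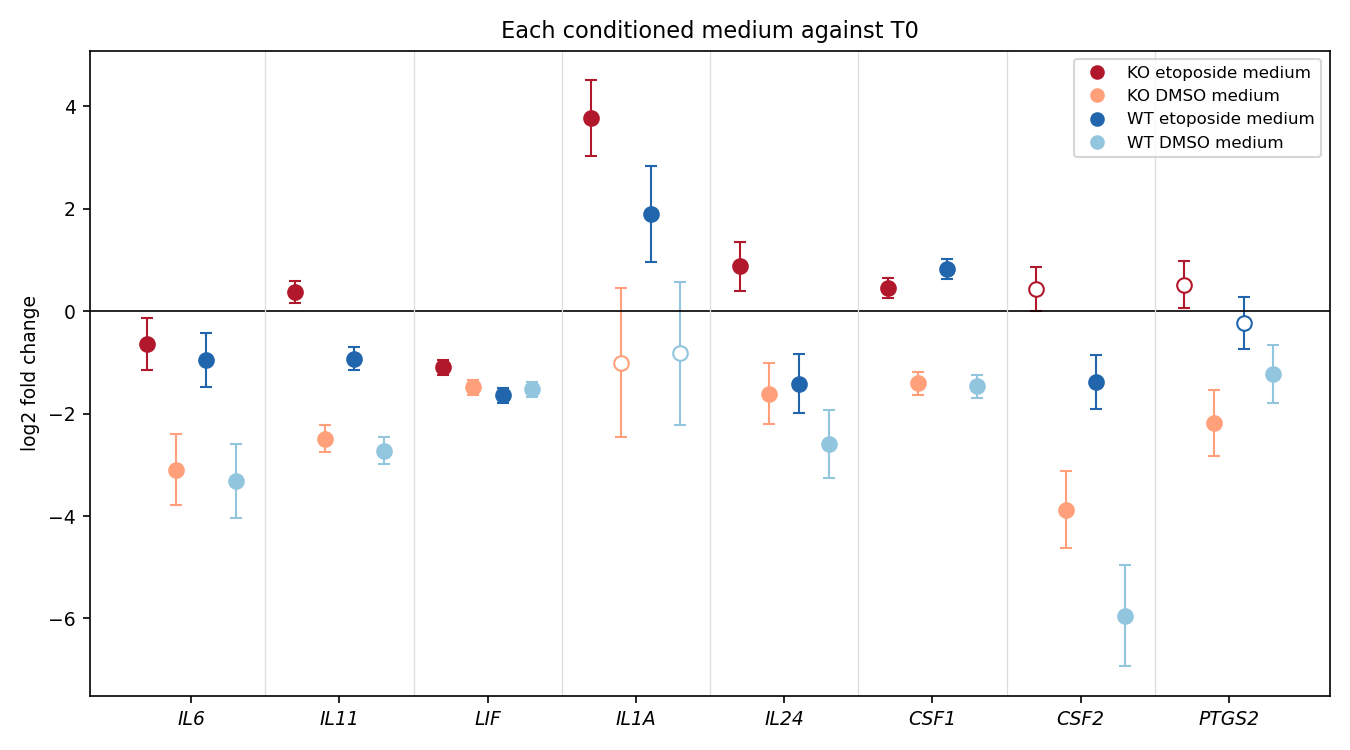
Log2 fold changes of each conditioned medium against T0 with 95% intervals worked back from edgeR's quasi-likelihood test. Filled points have an adjusted p under 0.05. LIF lies below 0 in all 4 media, from -1.09 to -1.64, while IL1A and CSF1 lie above 0 in both etoposide media.

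Among themselves, the 8 tested genes gave 28 pairs of log2 CPM profiles over the 10 libraries, with Pearson r from -0.03 to 0.99 and a median of 0.79. IL11 and CSF2 were the closest pair (r = 0.99), and IL6 with CSF2 and with IL11 both reached 0.95. LIF stood apart from IL1A (r = -0.03) and from CSF1 (r = 0.23). These values describe 10 libraries in 5 groups that share their treatments, and carry no test. Among 13686 other genes averaging at least 1 CPM, the profiles closest to IL11 were those of PTPRE (r = 0.99), SGK1 and HBEGF, an EGF receptor ligand. Among those closest to CSF2 were MAFF (r = 0.99) and KLHL42. Closest to IL24 were MICALCL (r = 0.99), IL2RB, a subunit of the IL-2 receptor, and TPBG. LIF was closest to HIVEP3 (r = 0.99), RNF24 and RAB36, CSF1 to ANXA4 (r = 0.99), ICOSLG and SLC12A4, and IL6 to RAP2B (r = 0.99), PRKCH and CLDN1. IL1A was closest to PCGF3 (r = 0.99), CCDC69 and CERS5, and PTGS2 to SECISBP2 (r = 0.97), CNST and FAM167A.

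The receptors and signalling genes of these factors were read from lists of other genes, described by counts. In the gp130 list 23 of 26 genes were tested, and in KO etoposide against KO DMSO medium 9 were higher and 2 lower, with a median log2 change of 0.18, against -0.01 over all genes, of which 18.8% were called higher and 18.4% lower. IL6ST, which encodes gp130 itself, had 162 and 138 CPM in KO etoposide medium and 84.1 and 86.5 CPM in KO DMSO medium (0.81 ± 0.08, SE, adjusted p = 1.9e-07), and EBI3 rose by 1.72 ± 0.14. SOCS3, the feedback inhibitor that gp130 signalling induces through STAT3, fell. It had 8.54 and 7.91 CPM in KO etoposide medium, 28.2 and 22.9 in KO DMSO medium, 11.8 and 13.4 in WT etoposide medium, 24.0 and 23.3 in WT DMSO medium, and 58.1 and 57.9 at T0. SOCS3 thus ran opposite to IL6 and IL11 between the etoposide and DMSO media, at -1.64 ± 0.12 for KO donors (adjusted p = 3.2e-09) and -0.91 ± 0.11 for WT donors (adjusted p = 4.6e-06), and was highest at T0. The KO effect on SOCS3 minus the WT effect was -0.73 ± 0.17 (adjusted p = 0.0296), and that on IL6ST 0.46 ± 0.11 (adjusted p = 0.0433). In WT media 7 genes of the gp130 list were higher and 5 lower with etoposide, where 16.1% of all genes were called higher and 18.5% lower, led by EBI3 (1.87 ± 0.14) and SOCS3, then IL6R (1.17 ± 0.17).

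In the IL-1 list 23 of 35 genes were tested, and 10 were higher and 2 lower in KO etoposide against KO DMSO medium, with 8 higher and 3 lower in WT media. The shares over all genes were 18.8% higher and 18.4% lower in KO media, and 16.1% higher and 18.5% lower in WT media. NLRP3, the sensor of the inflammasome that releases IL-1 beta, had 35.6 and 32.8 CPM in KO etoposide medium, 5.52 and 11.9 in KO DMSO medium, 15.5 and 17.0 in WT etoposide medium and 5.05 and 4.35 in WT DMSO medium. Its changes with etoposide were 1.97 ± 0.19 for KO donors (SE, adjusted p = 1.7e-07) and 1.79 ± 0.22 for WT donors (adjusted p = 4.6e-06), and KO DMSO library B lay above library A, as it did for IL24. IL1R1, the signalling receptor for both IL-1 proteins, rose by 0.98 ± 0.13 in KO media, and its KO effect exceeded its WT effect by 0.76 ± 0.18 (adjusted p = 0.0387). IL1RAP, the accessory receptor, rose by 0.86 ± 0.11 in KO media and by 0.83 ± 0.11 in WT media. TAB2, an adaptor of the TAK1 kinase, fell by 0.65 ± 0.08 in WT media, and its KO effect exceeded the WT effect by 0.69 ± 0.12 (adjusted p = 0.0069). GSDMD, whose cleaved product forms the pores through which IL-1 beta leaves, was lower in KO than in WT etoposide medium (-0.44 ± 0.08).

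**Figure D4:**
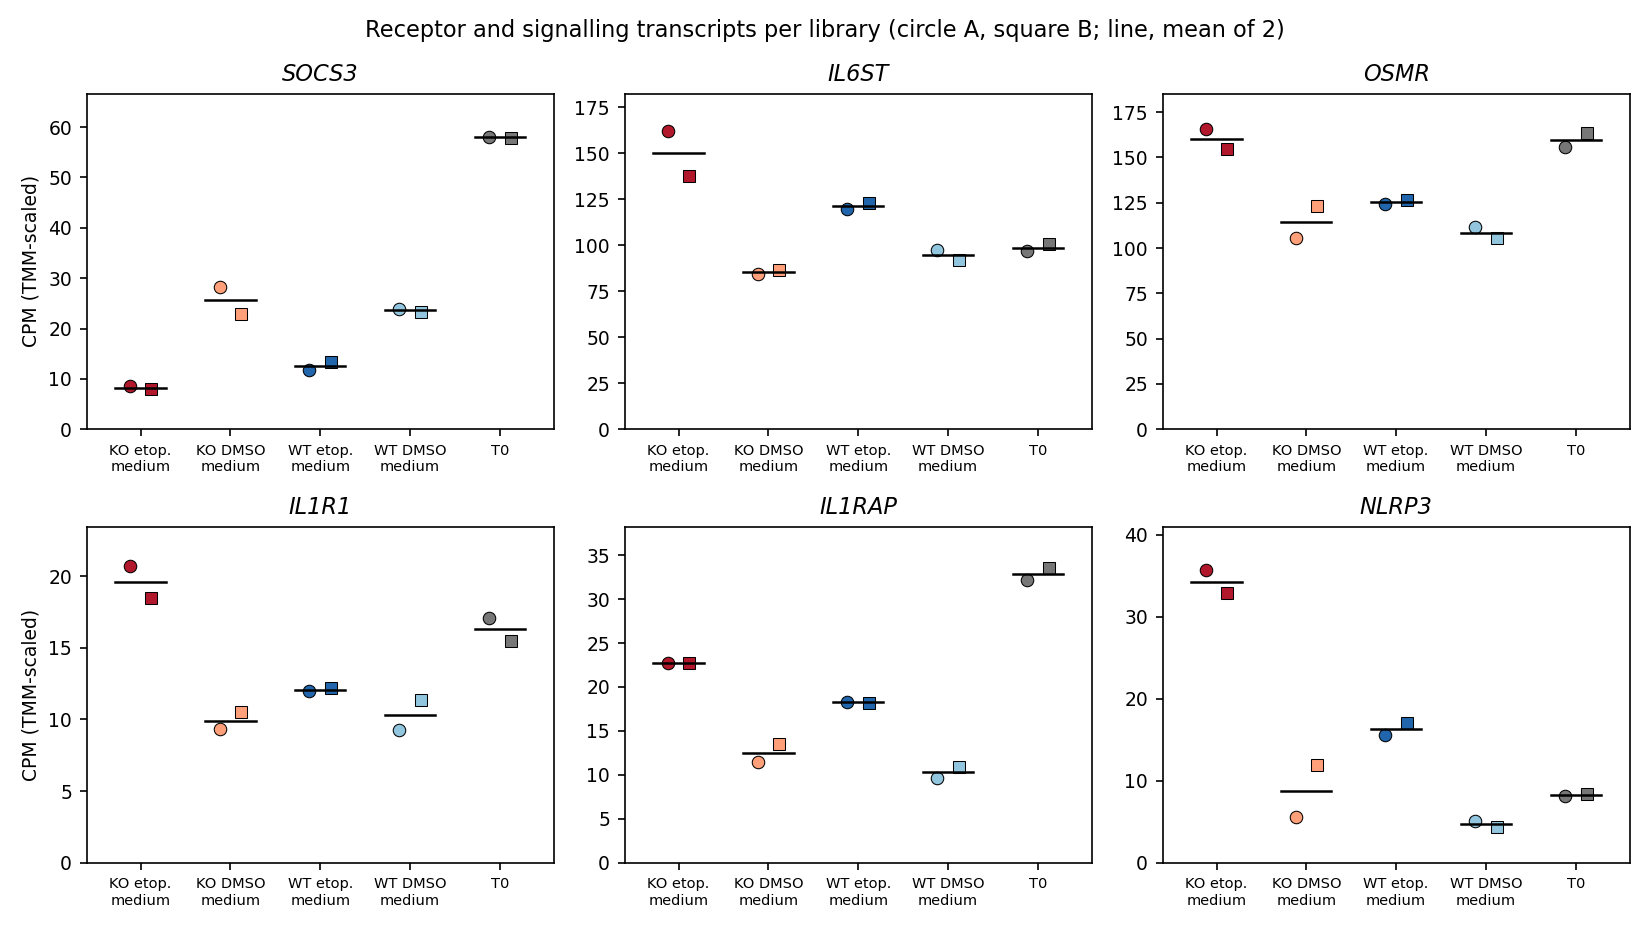
Levels in CPM (TMM-scaled, axes from 0) of 6 receptor and signalling transcripts in each of 10 RNA libraries, circles for library A and squares for library B, with a line at the mean of 2. SOCS3 is lowest in KO etoposide medium, at 8.54 and 7.91 CPM, whereas NLRP3 is highest there, at 35.6 and 32.8 CPM.

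In the list for IL-24 and its receptor family 3 of 10 genes passed the filter, and in the list of colony-stimulating factors and their receptors 3 of 14, which were KITLG, FLT3LG and CSF1R. IL22RA1 fell in both etoposide comparisons, with 0.763 CPM on average in KO etoposide medium and 1.66 in KO DMSO medium (-1.12 ± 0.33, SE, adjusted p = 0.0115), and 1.57 in WT etoposide medium and 3.00 in WT DMSO medium (-0.92 ± 0.26, adjusted p = 0.0098). KITLG, the ligand of the receptor KIT, rose by 1.98 ± 0.15 in KO media (adjusted p = 8.5e-09) and by 2.06 ± 0.15 in WT media (adjusted p = 4.5e-09). In the DMSO media KITLG was below T0, at -2.24 ± 0.15 with KO donors and -2.17 ± 0.15 with WT donors. In the prostaglandin list 14 of 22 genes were tested, and 2 were higher and 5 lower in KO media, with 1 higher and 3 lower in WT media, beside 18.8% of all genes higher and 18.4% lower in KO media and 16.1% higher and 18.5% lower in WT media. PLA2G4C, a cytosolic phospholipase A2, rose with PTGS2, by 1.11 ± 0.22 in KO media and by 1.72 ± 0.22 in WT media. PTGIS, the prostacyclin synthase, fell by 0.99 ± 0.21 in KO media and by 1.28 ± 0.20 in WT media. PTGER2, a receptor of prostaglandin E2, was below T0 in all 4 media, from -1.82 in WT DMSO medium to -2.41 in KO DMSO medium. Among 18 genes that control decay of such transcripts, all tested, 6 were higher and 5 lower in KO media and 5 higher and 4 lower in WT media, beside the same shares of all genes. ZC3H12A, which encodes the nuclease regnase-1 that cleaves IL6 mRNA, rose with IL6, by 1.02 ± 0.10 in KO media (adjusted p = 9.5e-08) and by 0.74 ± 0.10 in WT media (adjusted p = 1.1e-05).

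Of the genes next to the 9 loci in RefSeq's GRCh38.p14 gene order, 5 outside the 9 passed the filter. With etoposide 1 of these was higher and 1 lower in KO media, and likewise 1 higher and 1 lower in WT media. Of all genes, 18.8% were called higher and 18.4% lower in KO media, and 16.1% higher and 18.5% lower in WT media. The higher neighbours were AHCYL1 beside CSF1 in KO media (0.27, adjusted p = 0.0048) and P4HA2 beside CSF2 in WT media (0.22, adjusted p = 0.0391). IL1A's neighbour CKAP2L, a mitotic spindle gene, fell by 0.70 in KO media (adjusted p = 3.0e-06) and by 1.06 in WT media (adjusted p = 1.5e-08), while IL1A rose in both. TOMM7 beside IL6 had -0.09 in KO media and 0.10 in WT media, and PLA2G4A beside PTGS2 had -0.05 in KO media and -0.22 in WT media, none of them past the threshold. OSM, next to LIF, and IL3, next to CSF2, did not pass the filter, with at most 0.113 CPM of OSM and 0 CPM of IL3 in every library. The antisense RNA PACERR at the PTGS2 locus had 0 to 4 counts per library. The strand setting of the counting is not given in the sources used here, so reads of PTGS2 and PACERR cannot be told apart.

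In the screen each of the 9 genes had 6 guides, 54 in all, with 36 to 812 counts per guide and library and a median of 308. Counts of the 6 guides were summed per gene and tested across libraries. PTGS2 was the only one of the 9 genes called in any of 6 comparisons. Its guides were enriched in WT cells after 96 h in DMSO, at 51.4, 48.7 and 59.3 CPM in libraries A, B and C, against 43.5, 46.7 and 45.9 CPM at T0. The groups did not overlap, and library C in DMSO was the highest. The log2 change was 0.23 ± 0.06 (SE, 95% interval 0.11 to 0.34, adjusted p = 0.0044), against 1.12% of all genes called higher. All 6 PTGS2 guides were higher, from 0.16 to 0.35, and 0 of them passed the test singly. Without WT DMSO library C the value was 0.14 (adjusted p = 0.184), and without WT T0 library A it was 0.20 (adjusted p = 0.054).

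In KO cells over the same 96 h PTGS2 guides had 48.4, 44.2 and 45.2 CPM in DMSO, against 48.9, 47.5 and 45.5 CPM at T0, and the groups overlapped (-0.04 ± 0.06). The growth effect of PTGS2 guides in KO cells minus that in WT cells was -0.27 ± 0.08 (95% interval -0.43 to -0.11, adjusted p = 0.322), so the WT call is not shown to differ from KO; 0 of the 9 genes and 0.00525% of all genes were called in that test by edgeR, and 0 of the 9 by DESeq2. In that test 3 of the 9 genes had an unadjusted p under 0.05, against 7.71% of all genes. IL1B, IL24 and IL11 guides had 0.13 ± 0.05, 0.12 ± 0.05 and 0.12 ± 0.05 in WT growth with an unadjusted p under 0.05, as 18.1% of all genes had, and an adjusted p of 0.131 to 0.159. IL1B gained a call without WT DMSO library A (0.18, adjusted p = 0.0375) and IL11 without WT T0 library A (0.17, adjusted p = 0.0347). In KO growth the 9 genes lay between -0.08 and 0.10, with 0 called and 0 with an unadjusted p under 0.05, by edgeR, and 0 called by DESeq2; of all genes, 3.42% were called by edgeR.

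Etoposide against DMSO gave 0 calls among the 9 genes in KO cells and 0 in WT cells by edgeR, and likewise 0 by DESeq2, where 4.23% of all genes in KO cells and 2.18% in WT cells were called in either direction by edgeR. The genes lay between -0.11 (LIF) and 0.07 (IL24) in KO cells and between -0.17 (PTGS2) and 0.07 (IL6) in WT cells. With an unadjusted p under 0.05 there were 0 of the 9 genes in KO cells, against 17.1% of all genes, and 3 in WT cells, against 13.0% of all genes: PTGS2 (-0.17 ± 0.06, adjusted p = 0.127), IL1B (-0.14 ± 0.05, adjusted p = 0.165) and IL11 (-0.12 ± 0.05, adjusted p = 0.223). PTGS2 had 47.8, 45.4 and 49.0 CPM in WT etoposide, against 51.4, 48.7 and 59.3 CPM in WT DMSO, and those groups overlapped in 1 library. Without WT DMSO library B the PTGS2 value was -0.22 (adjusted p = 0.0348). The growth and etoposide comparisons of a line share its DMSO libraries, which enter with opposite sign, so they are not separate results. In WT cells PTGS2 averaged 45.4 CPM at T0, 53.1 in DMSO and 47.4 in etoposide. IL1B averaged 59.6, 65.0 and 59.0 CPM in the same order, and IL11 60.4, 65.4 and 60.2. The KO effect of etoposide minus the WT effect gave 0 calls by edgeR and by DESeq2, against 0.0525% of all genes by edgeR. An unadjusted p under 0.05 was found for 10.2% of all genes and for 2 of the 9, PTGS2 (0.20 ± 0.08, adjusted p = 0.358) and IL1B (0.16 ± 0.07, adjusted p = 0.393).

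**Figure D5:**
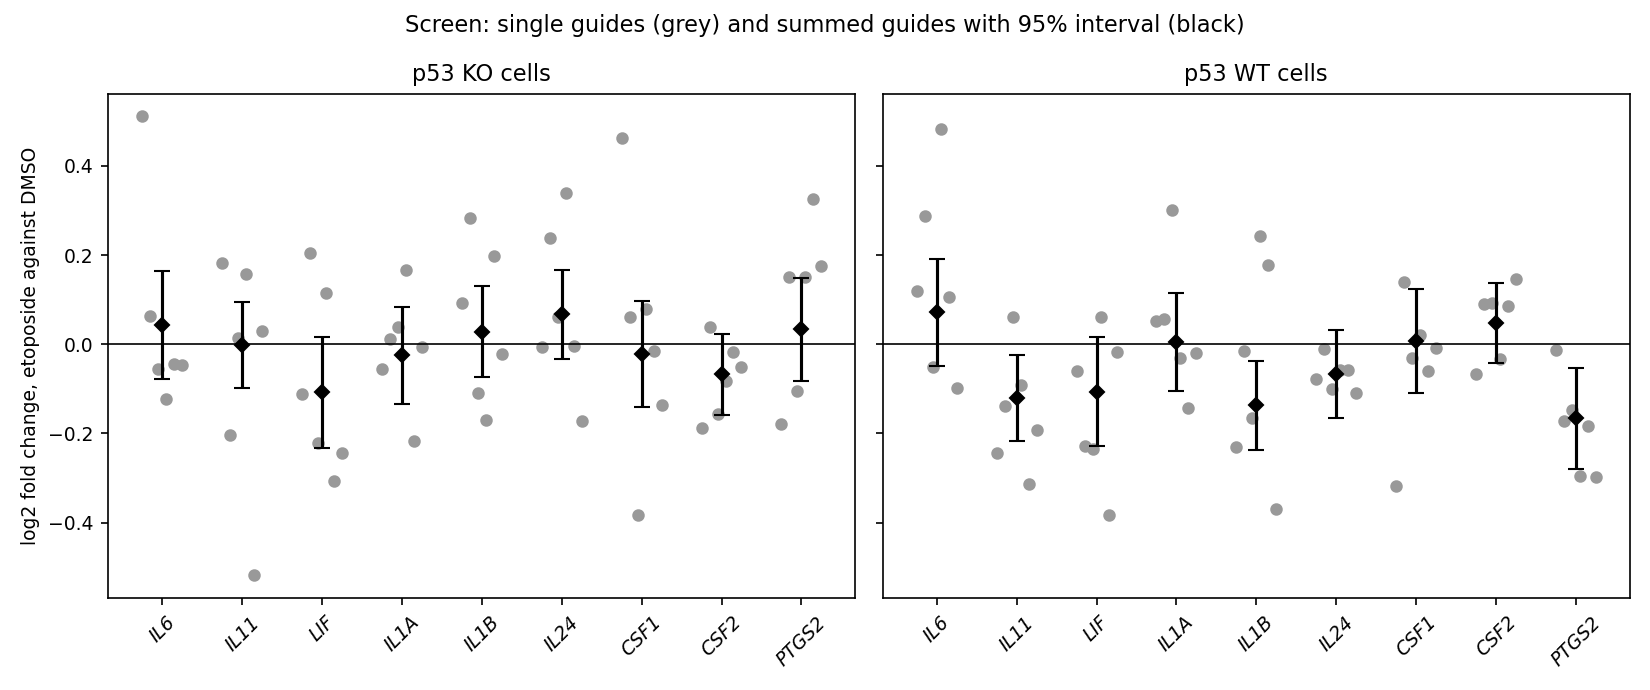
Log2 fold changes of etoposide against DMSO in the screen for KO cells (left) and WT cells (right), grey points for the 6 single guides of each gene and black diamonds for their summed counts with 95% intervals. Single guides scatter between -0.52 and 0.51 while summed values stay between -0.17 and 0.07.

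Of the 54 guides, 0 passed the test singly in any of the 6 comparisons by edgeR, adjusted over 109367 guides. Of all guides, the same test called 0.609% over growth and 0.841% in etoposide in KO cells, 1.54% over growth and 0.372% in etoposide in WT cells, and 0.00274% for etoposide and 0.000914% for growth in the KO effect minus the WT effect. In KO cells 3 of the 54 guides (5.56%) had an unadjusted p under 0.05 over growth, against 9.97% of all guides, and 5 (9.26%) in etoposide, against 12.4%. In WT cells 8 (14.8%) had one over growth, against 12.3% of all guides, and 3 (5.56%) in etoposide, against 9.33%. In the KO effect minus the WT effect 6 (11.1%) had one for etoposide, against 8.92% of all guides, and 4 (7.41%) for growth, against 7.16%. The guide with the smallest p in WT growth was IL1B guide HGLibA_23039 (0.37 ± 0.11, SE, adjusted p = 0.0711). In KO growth it was IL6 guide HGLibB_23149 (-0.64 ± 0.25, adjusted p = 0.326). In etoposide it was IL6 guide HGLibA_23180 in KO cells (0.51 ± 0.17, adjusted p = 0.127) and IL1B guide HGLibB_23010 in WT cells (-0.37 ± 0.11, adjusted p = 0.111). Guides of 1 gene share their target and are not replicates. The IL6 guides HGLibA_23182 and HGLibB_23151 differed by at most 9.22% in every library, with a median of 3.50%, the closest of 135 pairs of guides to the same gene.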

How the data were processed

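The authors deposited raw counts, 1 value per gene symbol in each RNA library and 1 per guide in each screen library. Per the submitters' processing notes, hg19 and DESeq2 belong to the RNA data, and Bowtie2 and DESeq2 to the guide data; the RNA aligner, annotation and strand setting are not given in these sources. The authors' deposited table holds a mean normalized signal, log2 fold changes, a test score and p-values, per the file headers. No label says whether replicate libraries were separate cultures: p-values then measure only the spread between these samples, which may be technical.

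Main tests were edgeR 4.0.16 quasi-likelihood fits with TMM factors, two-sided, over all 10 RNA libraries (5 residual degrees of freedom; filterByExpr, minimum count 10, kept 15391 of 25807 symbols) and all 18 screen libraries (guides summed to 19050 genes; 12 residual degrees of freedom). Benjamini-Hochberg adjustment covered every gene or guide, with a threshold of 0.05. Values after ± are standard errors where marked SE. Intervals are at 95% and those on counts cover counting error only. For edgeR, standard errors and intervals were worked back from the log2 change and its test statistic, and are approximate at low counts. The scripts were tested on simulated data. Genes, lists and tests were chosen with earlier results of these data known. From each list, up to 3 called genes with the smallest p were named in each comparison, with some left out here for length; profile likeness named the 3 closest genes, of which 1 is not reported here, nor is the check of the targeted gene. Neighbouring genes and PACERR fall outside this rule and were named after their values were seen. Screen libraries held 30.4 to 48.2 M counts. A spreadsheet had turned 51 symbols into currency-like strings, which were restored. Alternatives used DESeq2 1.42.0, limma 3.58.1 (R 4.3.3), other scalings and filters, only the libraries compared, a replicate block, and each library left out.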

Additional observations from a re-analysis of the deposited data

Results flagged for a closer look

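For 3 genes the recipients' change between etoposide and DMSO medium differed between KO and WT donors by the test of the difference itself (edgeR's quasi-likelihood test, n = 2 libraries per group). The KO effect minus the WT effect was 1.07 ± 0.18 on the log2 scale for IL11 (SE, adjusted p = 0.0071), 0.50 ± 0.10 for LIF (adjusted p = 0.0128) and 1.71 ± 0.43 for PTGS2 (adjusted p = 0.0447). For PTGS2, KO against WT was 0.75 ± 0.22 between the etoposide media and -0.96 ± 0.36 between the DMSO media. The latter was not called (adjusted p = 0.151) and rests on 21 counts in KO DMSO medium. DESeq2 gave no adjusted p for the PTGS2 difference of effects. KO DMSO library B stood apart in IL24. With that library left out, the values were 1.28 for IL11, 0.53 for LIF and 2.08 for PTGS2. A fit with 1 library left out has 1 library in that group and estimates the spread of every gene anew. A call kept or lost in such a fit therefore does not by itself show the part of that library. With each of 8 libraries left out in turn, PTGS2 lost its call for 7 of them (1.40 to 2.08 over the 8, adjusted p up to 0.184), LIF for 4 (0.45 to 0.55, adjusted p up to 0.113) and IL11 for 1, WT DMSO library B (1.04, adjusted p = 0.0623).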

How the results depend on the processing

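Leaving out 1 library at a time moved the number of genes called from 0 to between 0 and 2 for KO DMSO against WT DMSO medium, and from 3 to between 0 and 4 for the KO etoposide effect minus the WT effect. In the screen it moved that number from 1 to between 0 and 2 for WT growth, and from 0 to between 0 and 1 for etoposide against DMSO in WT cells. The sign changed with 1 library left out in KO DMSO against WT DMSO medium for IL1A (-0.71 to 0.24), CSF1 (-0.015 to 0.14) and IL24 (-0.22 to 1.66), and in the etoposide difference for IL6 (-0.24 to 0.33). With no filter on low counts, edgeR called 1 gene, IL24, between the DMSO media (1.01, adjusted p = 0.00024). It also called IL24 in the etoposide difference (1.29, adjusted p = 0.00039), where the number of genes called went from 3 to 4. Over all genes, that setting called 1186 between the DMSO media, against 240 with the filter. In the etoposide difference it called 791, against 326. DESeq2 lost IL24 in WT media (adjusted p = 0.105), PTGS2 between the etoposide media (adjusted p = 0.151), and IL6 and IL24 in KO etoposide medium against T0; it gave no adjusted p for 11 values. Fitting only the libraries compared lost PTGS2 in the etoposide difference (adjusted p = 0.079) and gained CSF2 (adjusted p = 0.0496) and PTGS2 (adjusted p = 0.038) in KO etoposide medium against T0. The causes were not tested. Replicate letters were not taken to pair the libraries, since not every same-letter correlation of deviations was over 0.1: it was 0.104, 0.062 and 0.172 for KO DMSO with KO T0 in the screen, and between -0.037 and 0.103 in the RNA. A fit with a replicate block gave the same number of genes called in each comparison, for example 8 in KO media, 7 in WT media and 3 in the etoposide difference. Of 582 screen values recomputed for genes not named singly, 0 were called and 70 changed sign, between -0.16 and 0.17. Depth limits IL1B, and IL1A and CSF2 in DMSO media.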
